A study of Mus musculus with 7 samples.

Results

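The genes described here encode subunits of the last stages of mitochondrial respiration. They are the genes of the array whose symbol begins with Uqcr, Cox4, Cox5, Cox6, Cox7, Cox8 or Atp5, together with Cyc1 and Cycs, and they number 43 of the 12393 genes named by at least 1 probe set. Of these, 9 belong to complex III, 16 to complex IV and 17 to ATP synthase, and 1, Cycs, is the electron carrier between complexes III and IV. RNA came from left ventricles of 7 males, all 21 months old, with 1 single-colour oligonucleotide array (MOE430A) per mouse. M4, M10 and M140 were labelled as knockouts of eNOS, endothelial nitric oxide synthase, which is encoded by Nos3 and produces nitric oxide in the cells that line vessels, and M23, M125, M128 and M158 as wild type. The question of the study, per the labels, was which transcripts differ in these aged knockout males, in which heart function declines with age and mortality is described as high. The labels name no strain, no other treatment and no exercise state of any mouse, although exercise is a keyword.

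Complex III takes electrons from ubiquinol and passes them through cytochrome c1 to cytochrome c, complex IV (cytochrome c oxidase) hands them to oxygen, and both pump protons that ATP synthase uses to make ATP. Heart muscle depends on this route for nearly all of its ATP and holds its transcripts at very high levels. Several complex IV subunits exist as a pair of isoforms, one of heart and skeletal muscle and one of most other tissues. Nuclear respiratory factor 1, the ETS factor GABP and the coactivator PGC-1alpha are known to drive many of these genes.

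The values were deposited probe set intensities on a linear scale, with a median of 671 to 699 per array, and they stopped at an upper limit of 44145 to 45552. Values below are given in the order M4, M10 and M140 for the knockout and M23, M125, M128 and M158 for the wild type. The small number of arrays, 3 and 4, limits the precision. With 1 array per mouse, p-values rest on the spread between arrays, in which mouse, RNA quality and hybridization day are mixed. The arrays were hybridized on 4 days, of which 1 held both groups (knockout M140 and wild-type M128; the shared day), and differences on it rest on 1 array a group. Knockout M4 and M10 were on day 3, wild-type M23 and M158 on day 4 and wild-type M125 on day 2. Genotype and day cannot be told apart for these arrays. Of the 43 genes, 40 passed the filter on dim probe sets, and 3, Atp5c1, Cox6b2 and Cox7c, did not. To pass, a probe set had to exceed the 40th percentile of the values on 3 or more arrays. Each gene was read by its brightest probe set below the limit on every array. For 5 genes (Atp5g3, Atp5j2, Cox4i1, Cox6a2 and Cox8b) no such probe set existed, and for 13 the chosen one lay above 80% of the limit on all 7 arrays. A gene well below the limit on the knockout arrays could not be among those 13, so small differences there follow in part from the choice. A difference above the limit would also be hidden. Nos3, the targeted gene, read 1145, 1413 and 1135 on the knockout arrays and 791, 1163, 872 and 1058 on the wild-type arrays. It was not lower on the knockout arrays, with a log2 difference, knockout minus wild type, of 0.35 ± 0.15 (SE; unadjusted p = 0.0488, adjusted p = 0.42). No source used here says which part of Nos3 was disrupted or where the probe set lies, and the label of a mouse cannot be checked by it. Tnnt2 and Actc1, defining transcripts of heart muscle, reached the upper limit on each of the 7 arrays. In tissue RNA, fewer cells of a type and less RNA per cell cannot be told apart.

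Transcripts of the 3 complexes leaned lower on the knockout arrays, by small amounts. Of the 16 tested members below 80% of the limit on all arrays, 13 had a log2 difference below 0 and 3 above, against 4480 below and 4383 above among the 8863 genes tested by the same rule. Over all 40 the count was 34 below and 6 above, but the sign of a gene at the limit is that of the arrays' limits: Atp5g3, at it on all 7 arrays, differed by -0.0061, as did Tnnt2. By limma, 0 of the 40 passed an adjusted p of 0.05, as did 0% of all genes. At an unadjusted p under 0.05, 8 members were lower, Cox7a1, Uqcrq, Atp5g2, Uqcr11, Cycs, Atp5e, Cyc1 and Atp5pb, and 0 higher. Among all tested genes, 5.44% were lower at that p and 6.77% higher. Of those 8 members, 6 lay above 80% of the upper limit on some arrays, and 2, Atp5g2 and Atp5e, below it on all. The 3 knockout arrays lay wholly below the 4 wild-type arrays for 7 members and wholly above for 0, against 4.94% and 5.29% of all tested genes. The median log2 difference was -0.057 over the members and -0.0025 over all tested genes. It was -0.18 over the 16 members below 80% of the limit on all arrays. Over the 11 above it on some arrays it was -0.19, and over the 13 above it on all -0.012. These sets were formed from values that include the knockout arrays.

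When limma weighted the arrays, 5 members passed an adjusted p of 0.05, all lower (Uqcrq, Uqcr11, Cycs, Cox7a1 and Atp5g2), beside 1.95% of all genes, and 18 were lower at an unadjusted p under 0.05, beside 11% of all genes. That fit gave knockout M4 a weight of 3.81 and wild-type M128 one of 0.373. Without knockout M4 the count at an unadjusted p under 0.05 was 5. With probe sets kept below 80% of the limit it was 3, since Cox7a1, Uqcr11, Cycs and Cyc1 then had no tested probe set and Uqcrq was read by a dim one. The share of all genes is given only for the main fit and the array weights. Counts under other settings therefore show no gain or loss of the members against all genes.

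**Figure D1:**
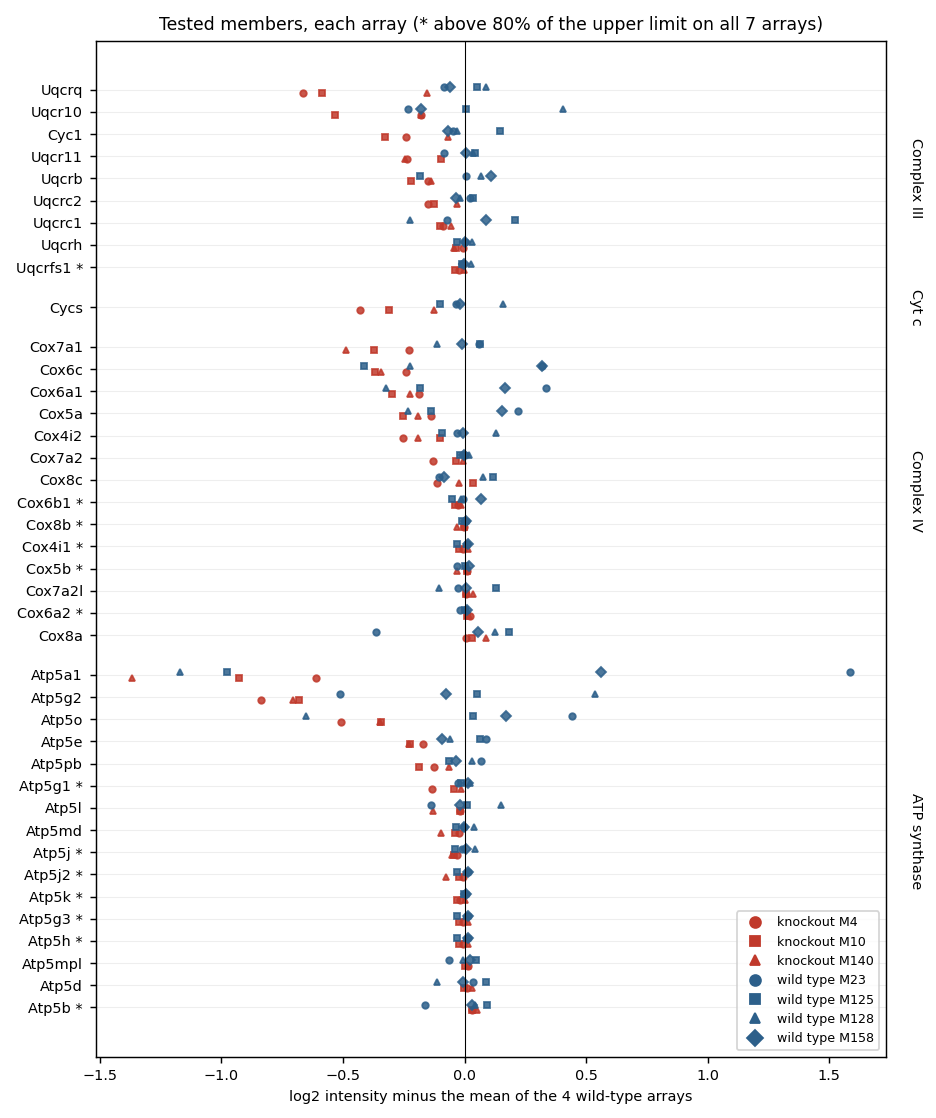
Log2 intensity of each of the 40 tested members on each array minus the mean of the 4 wild-type arrays, by complex and ordered by the log2 difference; asterisks mark the 13 genes above 80% of the upper limit on all arrays. Knockout points (red) sit left of the wild-type points (blue) for Cox7a1, Uqcrq, Uqcr11, Cycs, Cox4i2, Atp5g2 and Atp5e. Genes with an asterisk show little spread, which follows in part from their choice by values near the limit on all arrays.

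By complex, the medians were -0.17 for the 9 members of complex III, -0.031 for the 14 tested members of complex IV and -0.048 for the 16 of ATP synthase. At an unadjusted p under 0.05, 3 members were lower in complex III, 1 in complex IV and 3 in ATP synthase. These medians cannot be read as an order of the complexes, because 1 complex III gene, 5 complex IV genes and 7 ATP synthase genes lay above 80% of the limit on every array. On the shared day they were -0.073, -0.028 and -0.060. Over the members below 80% of the limit on all arrays the medians were -0.13 (4 genes), -0.11 (6 genes) and -0.30 (6 genes), with 4, 4 and 5 of them below 0. Those 16 genes had a median deviation from the wild-type mean of -0.16 on each of knockout M4, M10 and M140, and between -0.015 and 0.021 on the wild-type arrays. Their median difference on the shared day was -0.11. Among them Atp5a1, Atp5o, Cox6a1 and Cox6c were highest on wild-type M23 and M158. Without these 2 arrays they differed by 0.10, -0.093, 0.015 and 0.0015, whereas Atp5g2 and Uqcr10 differed by -1.04 and -0.50. The lean of the 16 thus rests in part on M23 and M158.

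**Figure D2:**
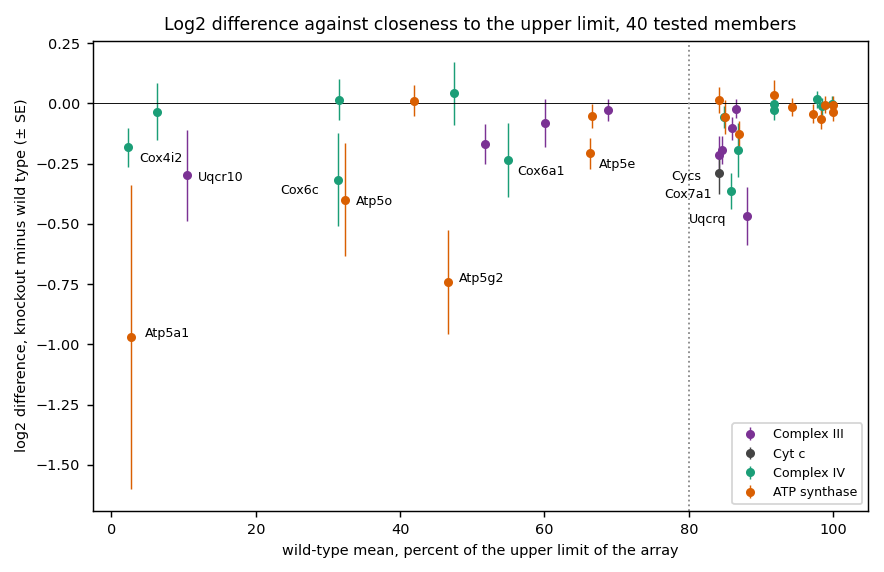
Log2 difference, knockout minus wild type (± SE, n = 3 and 4), of the 40 tested members against the wild-type mean as a percent of each array's upper limit; the dotted line is at 80%. All points near 100% lie close to 0, and the largest differences, Atp5a1 at -0.97 and Atp5g2 at -0.74, lie below 80%.

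In complex III, Uqcrq, a small subunit of the ubiquinone-binding part, had the largest difference. It read 25040.4, 26420.4 and 35659 on the knockout arrays and 37424, 41124, 42192 and 38054 on the wild-type arrays. Its means were 29040.0 ± 5774 (SD, n = 3) against 39699 ± 2319 (SD, n = 4), which gave a log2 difference of -0.47 ± 0.12 (SE; unadjusted p = 0.00437, adjusted p = 0.254). Knockout M4 and M10 stood well below every wild-type array, and knockout M140 came close to the lowest of them. M4 and M10 shared a hybridization day without wild-type arrays, so genotype and day cannot be told apart in them. Without M140 the difference was -0.62 (adjusted p = 0.0393; 0.0393 to 0.792 over the alternatives). This probe set is of a kind that can read related transcripts, and the brightest of the other 3 probe sets of the gene, all dim, differed by -0.12 and the others by 0.087 and 0.015.

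Uqcr11, the smallest subunit of the complex, read 32376, 35640.1 and 32233 on the knockout arrays and 35991, 39363, 39114 and 38282 on the wild-type arrays. All 3 knockout arrays lay below all 4 wild-type arrays, at 87.5% of the wild-type mean, and the log2 difference was -0.19 ± 0.057 (SE; unadjusted p = 0.0097, adjusted p = 0.289). Cyc1, cytochrome c1, which carries the haem that reduces cytochrome c, read 32094, 30202 and 36178 on the knockout arrays and 36729, 41944, 37117 and 36178 on the wild-type arrays. Its difference was -0.21 ± 0.079 (SE; unadjusted p = 0.0273, adjusted p = 0.373), and the groups overlapped at knockout M140, which equalled wild-type M158. Without knockout M10 it was -0.15, and on the 1 shared hybridization day (knockout M140 and wild-type M128) it was -0.037, against -0.28 for Uqcr11 and -0.24 for Uqcrq.

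Uqcrc2, a core protein on the matrix side of the complex, read 34954, 35505 and 37923 on the knockout arrays and 39366, 39691, 38281 and 37853 on the wild-type arrays, and Uqcrb, a subunit that binds ubiquinone, read 21022, 20007 and 21151 on the knockout arrays and 23388, 20533, 24456 and 25118 on the wild-type arrays. Knockout M4 and M10 lay low for Uqcrc2 and all 3 knockout arrays for Uqcrb, but the groups overlapped in both, with differences of -0.10 ± 0.047 (SE; unadjusted p = 0.0607, adjusted p = 0.449) and -0.17 ± 0.083 (SE; unadjusted p = 0.0758, adjusted p = 0.484). The other core protein, Uqcrc1, differed by -0.081, and by 0.17 on the shared day. Uqcrh, the hinge protein that binds cytochrome c1, ran from 30109 to 31670 over all 7 arrays and differed by -0.029. Uqcrfs1, the Rieske iron-sulfur protein, lay above 80% of the limit throughout and differed by -0.022. Uqcr10, another small subunit, differed by -0.30 on its dim chosen probe set, of the kind that can read related transcripts. It differed by -0.61 (unadjusted p = 0.0367) on a dimmer one and by 0.032 on a bright one. The bright one was at or near the limit on all arrays and could hardly show a difference, and the other 2 leaned the same way.

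Cycs, cytochrome c itself, read 28133, 30574 and 34781 on the knockout arrays and 36964, 35286, 42291 and 37390.4 on the wild-type arrays. Knockout arrays were at 82% of the wild-type mean and all below the wild-type arrays, with knockout M140 next to the lowest of them, wild-type M125. The log2 difference was -0.29 ± 0.088 (SE; unadjusted p = 0.0115, adjusted p = 0.294). On the shared day it was -0.28. Its 2 brighter probe sets, each at the limit on 1 array, differed by -0.12 and -0.028.

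**Figure D3:**
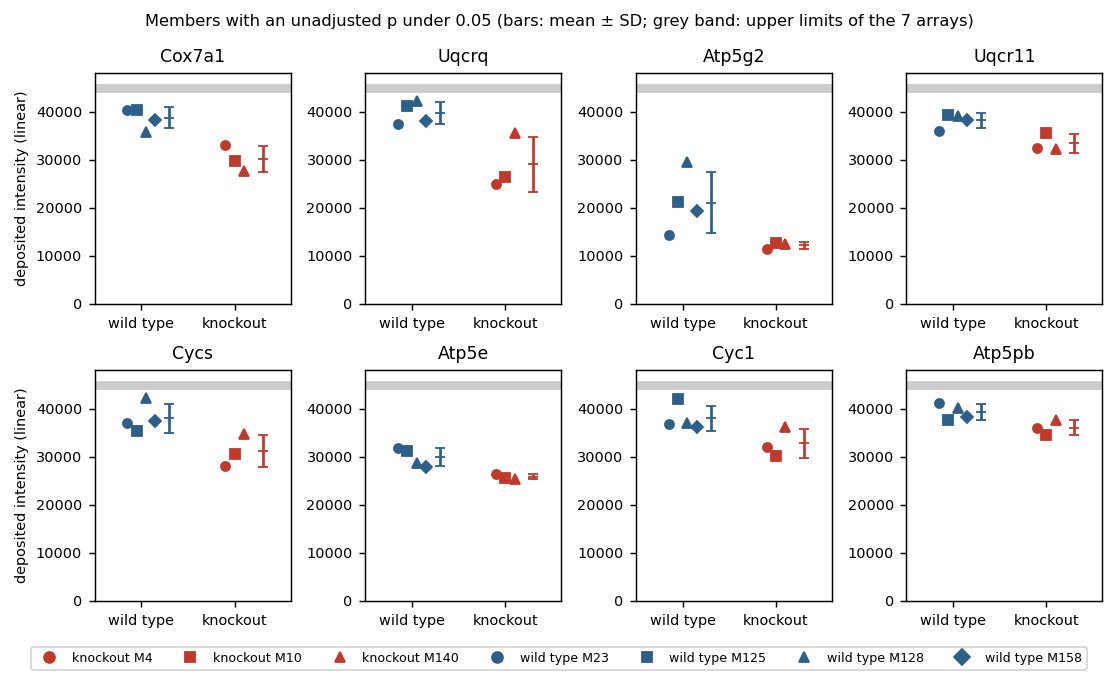
Deposited intensity on each array of the 8 members with an unadjusted p under 0.05, with group means ± SD (n = 4 wild type, n = 3 knockout) and the upper limits of the arrays as a grey band. Wild-type values of most of these genes crowd below the band, whereas Atp5g2, from 14249 to 29527 in wild type, is well clear of it.

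In complex IV, Cox7a1, the heart and muscle isoform of subunit 7A, had the smallest p of the 40 tested genes. It read 32981, 29825 and 27566 on the knockout arrays and 40279, 40445, 35786 and 38337 on the wild-type arrays. Its means were 30124 ± 2719.6 (SD, n = 3) against 38712 ± 2173 (SD, n = 4), which gave a log2 difference of -0.36 ± 0.074 (SE; unadjusted p = 0.00121, adjusted p = 0.186). Every knockout array lay below every wild-type array, and the unadjusted p stayed under 0.05 in 25 of 25 alternative fits, with differences of -0.43 to -0.30 and adjusted p of 0.0483 to 0.453. On the shared day the difference was -0.38. Cox7a2, the ubiquitous isoform of the same subunit, read 35031, 37329.7 and 38058 on the knockout arrays and 38277, 37819, 38801 and 38234 on the wild-type arrays. Its groups overlapped, with a difference of -0.058 ± 0.046 (SE; unadjusted p = 0.242, adjusted p = 0.691). The wild-type means of Cox7a2 and Cox7a1 lay at 84.8% and 85.8% of the limit.

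The muscle isoform was compared with the ubiquitous one within each array, as the log2 of one over the other, for 3 pairs. For Cox7a1 over Cox7a2 the knockout arrays deviated from the wild-type mean by -0.10, -0.34 and -0.48 and the wild-type arrays by 0.059, 0.082, -0.13 and -0.010. The mean shift was -0.31 (SD 0.19 for n = 3 and 0.096 for n = 4; exact two-sided permutation p = 0.0571, adjusted over 3 pairs 0.171, smallest possible 0.0286). Wild-type M128 lay below knockout M4, and this was the only overlap of the groups. With the brightest probe set of Cox7a2, which was at the limit on all 7 arrays, or with the mean of its probe sets, the shift was -0.36 and -0.33, and the exact permutation p was 0.0286 in both. A probe set at the limit hardly varies, so that those 2 values mostly repeat the difference of Cox7a1.

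For Cox6a2 over Cox6a1 the mean shift went the other way, 0.25 (exact permutation p = 0.286, adjusted 0.429), and for Cox8b over Cox8a it was -0.054 (exact permutation p = 0.971, adjusted 0.971). The muscle isoforms hardly varied. Cox6a2, at the limit on 3 arrays, read 44868, 44424 and 44668 on the knockout arrays and 43545, 44145, 44424 and 44424 on the wild-type arrays, and Cox8b, at it on 1, read 44332, 44332 and 43465 on the knockout arrays and 44587, 44145, 44332 and 44587 on the wild-type arrays. They differed by 0.017 and -0.012, and their ubiquitous partners by -0.24 and 0.042, so that both shifts are mostly those of the partners. Cox6a1 read 21448, 19844 and 20862 on the knockout arrays and 30831, 21521, 19517 and 27404 on the wild-type arrays, with a difference of -0.24 ± 0.15 (SE; unadjusted p = 0.161, adjusted p = 0.612). The high arrays were wild-type M23 and M158, and without them the shift of that pair was -0.0029; on the shared day it was -0.088, against -0.35 for Cox7a1 over Cox7a2 and 0.0064 for Cox8b over Cox8a. Cox8a read 21239, 21651 and 22513 on the knockout arrays and 16461, 24069, 23064 and 22000.1 on the wild-type arrays. Here M23 was the low array, and without it the shift of that pair was 0.069. None of the 3 shifts passed the test, the pairs were not tested against each other, and 2 of them could not measure the muscle isoform.

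**Figure D4:**
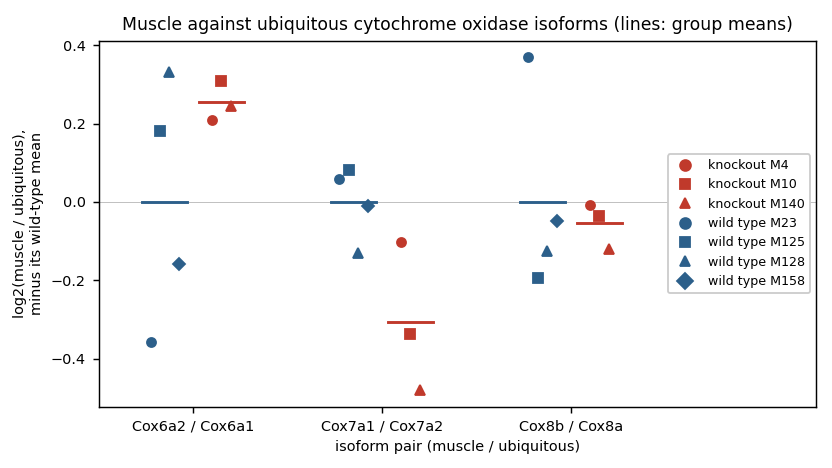
Log2 of the muscle over the ubiquitous isoform on each array, minus the mean of the 4 wild-type arrays, for 3 pairs of cytochrome oxidase subunits; lines are group means. Knockout points lie at -0.48 to -0.10 for Cox7a1 / Cox7a2, with M4 above wild-type M128, and the groups overlap in all 3 pairs.

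The promoters of Cox7a1 and its partner Cox7a2 are shown to set the isoforms side by side. Those of Atp5g2, Atp5e and Uqcr11 are shown as some of the further members whose groups were apart. Each runs from 250 bases before to 50 after the RefSeq start of the gene (build GRCm38.p6), on the gene's strand. Positions are chr7:30183921-30184220, plus strand for Cox7a1, chr9:79759804-79760103, minus strand for Cox7a2, chr15:102670998-102671297, minus strand for Atp5g2, chr2:174464052-174464351, minus strand for Atp5e, and chr10:80406772-80407071, minus strand for Uqcr11. Capitals mark matches, on either strand, to 3 motifs of known regulators of these genes: that of nuclear respiratory factor 1, CCGGAAG for ETS factors such as GABP, and AAGATGGC for YY1. The motif of nuclear respiratory factor 1 is the run of capitals in the Atp5g2 promoter, with any base allowed at its position 6, counted from the 5′ end. None of the 3 motifs overlaps another in these windows.
Cox7a1: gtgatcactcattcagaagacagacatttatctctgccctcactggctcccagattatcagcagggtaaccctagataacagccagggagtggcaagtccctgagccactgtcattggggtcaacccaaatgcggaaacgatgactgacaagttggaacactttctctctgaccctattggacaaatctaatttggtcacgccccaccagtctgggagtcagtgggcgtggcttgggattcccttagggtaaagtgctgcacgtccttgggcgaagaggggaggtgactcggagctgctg
Cox7a2: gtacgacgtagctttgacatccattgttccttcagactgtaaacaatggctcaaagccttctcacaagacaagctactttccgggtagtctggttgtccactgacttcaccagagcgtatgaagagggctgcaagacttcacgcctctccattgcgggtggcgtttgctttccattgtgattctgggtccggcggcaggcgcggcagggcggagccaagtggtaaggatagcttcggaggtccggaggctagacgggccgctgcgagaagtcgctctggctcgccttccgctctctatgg
Atp5g2: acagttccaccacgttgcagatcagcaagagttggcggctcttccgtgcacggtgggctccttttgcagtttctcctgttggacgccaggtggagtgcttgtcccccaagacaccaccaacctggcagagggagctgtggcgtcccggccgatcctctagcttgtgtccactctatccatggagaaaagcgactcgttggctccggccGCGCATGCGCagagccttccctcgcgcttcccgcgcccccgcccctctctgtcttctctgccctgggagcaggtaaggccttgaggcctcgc
Atp5e: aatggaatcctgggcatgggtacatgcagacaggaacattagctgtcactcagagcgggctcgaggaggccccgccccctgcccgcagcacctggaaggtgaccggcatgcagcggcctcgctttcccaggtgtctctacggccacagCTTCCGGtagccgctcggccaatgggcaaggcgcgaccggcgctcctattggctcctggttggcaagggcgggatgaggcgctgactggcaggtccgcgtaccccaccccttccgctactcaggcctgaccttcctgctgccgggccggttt
Uqcr11: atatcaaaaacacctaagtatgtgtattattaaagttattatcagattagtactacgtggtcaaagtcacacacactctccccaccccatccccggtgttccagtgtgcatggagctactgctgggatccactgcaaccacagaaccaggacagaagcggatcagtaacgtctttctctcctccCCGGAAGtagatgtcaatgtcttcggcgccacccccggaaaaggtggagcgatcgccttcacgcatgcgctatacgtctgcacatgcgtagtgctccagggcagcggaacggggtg

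The windows of Cox7a1 and Cox7a2 held none of the 3 motifs, Atp5g2 held 1 match for nuclear respiratory factor 1, 42 bases before the start, and Atp5e and Uqcr11 held 1 ETS match each, 102 and 66 bases before it. Cycs, also with groups apart, held none of the 3 motifs in its window, which is not shown. Uqcrq and Cox4i2, the others with groups apart, had no matched promoter. Promoters of 32 of the 43 members were matched in RefSeq. At least 1 of the 3 motifs occurred in 56.2% of these members, against 14.7% of all 32851 promoters of that length. Members were counted by gene, with a match in any promoter of the gene, whereas the share of all promoters counts each promoter. Counted by promoter, the motifs of nuclear respiratory factor 1, ETS factors and YY1 occurred in 22.9%, 31.4% and 8.57% of 35 member promoters. The motif of nuclear respiratory factor 1 occurred in 8 of 32 (4.6% of all promoters), that of ETS factors in 11 (8.86%) and that of YY1 in 3 (2.75%). Of the 6 matched members lower at an unadjusted p under 0.05, 1 held the first motif, 2 the second and 1 the third, and of the other 26 matched members 7, 9 and 2. A match is a description of letters and no evidence of binding.

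Of the remaining complex IV subunits, 1 had groups apart. Cox4i2, the isoform of subunit 4 best known from lung, read 867, 963 and 904 on the knockout arrays and 1014, 969.9, 1136 and 1030.0 on the wild-type arrays. All knockout arrays were below all wild-type arrays, with a difference of -0.18 ± 0.081 (SE; unadjusted p = 0.0541, adjusted p = 0.436), and of -0.32 on the shared day. Cox5a and Cox6c are subunits with no muscle form. Cox5a read 35394, 32644 and 34082 on the knockout arrays and 45261, 35351, 33132 and 43236 on the wild-type arrays, a difference of -0.19 ± 0.11 (SE; unadjusted p = 0.121, adjusted p = 0.561). Cox6c read 11693, 10715 and 10905 on the knockout arrays and 17259.8, 10386, 11830.2 and 17258 on the wild-type arrays, a difference of -0.32 ± 0.19 (SE; unadjusted p = 0.139, adjusted p = 0.582). In both, wild-type M23 and M158 stood above the other 5 arrays. Without them the differences of Cox5a, Cox6c and Cox6a1 were -0.0085, 0.0015 and 0.015.

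Cox5b, Cox6b1 and Cox4i1, ubiquitous subunits, lay above 80% of the limit on all arrays, and Cox4i1 was at it on 6. They differed by -0.0036, -0.027 and -0.0045. Cox7a2l, a relative of subunit 7A that helps complexes III and IV join into supercomplexes, read 13163 to 15516 over all arrays and differed by 0.015. The testis isoform Cox8c differed by -0.034. Cox6b2, also a testis isoform, and Cox7c, whose probe sets here were both dim, read 286 to 374 and 224 to 286 and were not tested.

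In ATP synthase the largest difference with groups apart was that of Atp5g2, 1 of 3 genes for the same mature c subunit of the proton-driven ring. Its probe set read 11374, 12694 and 12476 on the knockout arrays and 14249, 21105, 29527 and 19276 on the wild-type arrays. The 3 knockout values lay close together and below the lowest wild-type array, M23, while wild-type M128 read more than any other array and carried much of the spread of its group. Its means were 12181 ± 708 (SD, n = 3) against 21039 ± 6358 (SD, n = 4), so that the knockout stood at 57.9% of the wild type, and the log2 difference was -0.74 ± 0.21 (SE; unadjusted p = 0.00872, adjusted p = 0.285). Across alternatives it ran from -1.24 on the shared day to -0.56 without wild-type M128, with adjusted p of 0.042 to 0.843. Atp5g1, for the same subunit, lay above 80% of the limit on all arrays and differed by -0.064, and Atp5g3 was at the limit on all 7 and gives no fold. Whether all 3 genes for this subunit differed could therefore not be measured.

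Atp5e, the epsilon subunit of the central stalk, read 26492, 25569.7 and 25468 on the knockout arrays and 31742, 31231, 28615 and 27963 on the wild-type arrays. The groups were apart, with the knockout at 86.5% of the wild-type mean, and the log2 difference was -0.21 ± 0.064 (SE; unadjusted p = 0.012, adjusted p = 0.296). The only probe set of Atp5e, like the chosen one of Atp5pb, is of the kind that can read related transcripts. Atp5pb, the b subunit of the peripheral stalk that holds the catalytic head still, read 35971, 34451 and 37598 on the knockout arrays and 41110.0, 37598, 40143 and 38267 on the wild-type arrays. Its difference was -0.13 ± 0.053 (SE; unadjusted p = 0.0451, adjusted p = 0.409), with groups meeting at knockout M140 and wild-type M125, and its other probe set differed by -0.13 (unadjusted p = 0.0472). The unadjusted p was under 0.05 in 23 of 25 alternatives for Atp5e and in 13 of 26 for Atp5pb.

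The catalytic subunits could hardly be measured. Atp5b, the beta subunit, lay above 80% of the limit on all arrays and differed by 0.036. Atp5a1, the alpha subunit, had 1 probe set at the limit on all arrays, 1 at it on 2 arrays, which differed by 0.13, and the dim one chosen here. That one read 576, 459 and 334 on the knockout arrays and 2696, 444, 386 and 1319 on the wild-type arrays. Wild-type M23 and M158 were the high arrays, and the difference of -0.97 ± 0.63 (SE; unadjusted p = 0.163, adjusted p = 0.615) became 0.10 without them. Atp5c1, the gamma subunit, was at the limit on its bright probe set and untested on its dim one, which read 323 to 468.

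Atp5o, the stalk protein that confers oligomycin sensitivity, read 9924, 11099.6 and 11077 on the knockout arrays and 19185, 14469, 8977 and 15881 on the wild-type arrays on a probe set of the cross-reading kind. Its difference of -0.40 ± 0.23 (SE; unadjusted p = 0.125, adjusted p = 0.565) was -0.093 without M23 and M158 and 0.30 on the shared day, and its brighter probe set, at the limit on 1 array, differed by -0.045. Atp5md and Atp5mpl, small membrane subunits that help the enzyme form dimers or stay together, were below 80% of the limit and differed by -0.054 and 0.011. Atp5d, the delta subunit, differed by 0.013 on the chosen probe set and by -0.22 on a dimmer one. The other small subunits, Atp5h, Atp5j, Atp5j2, Atp5k and Atp5l, read at or near the limit on most arrays, and differed by -0.057 to -0.0061.

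Partner genes of the same route were read from lists by the same probe set rule. The subunits encoded by mitochondrial DNA were not analysed here. Of 33 tested genes listed under complex I, Ndufa4 among them, 5 were lower and 0 higher at an unadjusted p under 0.05. The median of the 33 was -0.087, and 5.44% of all genes were lower at that p. Of 4 complex II subunits 1 was lower. Ndufb2 and Ndufs4 of complex I differed by -0.61 and -0.48, and Sdha of complex II by -0.29. Of 7 genes listed as assembly factors of complex III, Cyb5r1 among them, 3 were lower. They were Uqcc2 (needed for cytochrome b), Hccs (which attaches haem to cytochromes c and c1) and Ttc19 (which clears fragments of the Rieske protein), at -0.43, -0.60 and -0.33. Of 17 assembly factors of complex IV 3 were lower, Coa6 and Cox20 (which serve the copper centres of the oxidase) and Pet100, at -0.57, -0.36 and -0.45. In the same list 1 was higher, Cox19, a copper-binding factor named after its value was seen, at 0.56. In the complex III list 5 genes had a log2 difference below 0 and 2 above, Uqcc3 at 0.31 and Cyb5r1 at 0.36. In the complex IV list 12 were below 0 and 5 above. The medians of these 2 lists were -0.33 and -0.15, but 0.13 and 0.16 on the shared day. Tmem70, which helps build the c ring of ATP synthase, was the 1 lower of 3 assembly or inhibitor genes of that enzyme, at -0.47, or 71% of the wild-type mean. Adjusted p of Ndufb2, Ndufs4, Sdha and the assembly or inhibitor genes named as lower or higher lay between 0.196 and 0.42.

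Hccs read 1576, 1731 and 1946 on the knockout arrays and 2158, 2596, 3589.7 and 2427 on the wild-type arrays. All 3 knockout arrays were below all wild-type arrays, as they also were for Uqcc2, Ttc19, Coa6, Pet100 and Tmem70. Of 13 tested nuclear regulators of respiratory genes 3 were lower and 0 higher at an unadjusted p under 0.05, beside 5.44% and 6.77% of all genes. Ppargc1a, which encodes PGC-1alpha, read 738, 833 and 1149 on the knockout arrays and 4126, 4237, 3351 and 3153 on the wild-type arrays on its chosen probe set, the one with the largest difference of its 5 (-2.03, against -0.81 to -0.50 for the other 4; adjusted p = 0.0531). Ppargc1b, its relative, differed by -0.37, and the factors Nrf1, Gabpa, Esrra and Tfam by -0.053, -0.13, -0.19 and -0.13, with unadjusted p of 0.156 to 0.565. Among those 4, the groups were apart for Esrra, a nuclear receptor that works with PGC-1alpha, which read 2103 to 2448 on the knockout and 2450.3 to 2925 on the wild-type arrays.

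Measures of tissue and RNA moved with parts of these results, and their part in them was not tested. The 5' to 3' ratio of the Gapdh control probe sets, lower where RNA is degraded or incompletely copied, was 0.0978 on wild-type M23 and 0.34 on M158, which shared hybridization day 4, and 0.52 to 0.777 on the other 5 arrays. The 3' probe set was at the upper limit on 6 arrays and at 99.8% of it on M158, so that these ratios are upper bounds, nearly so on M158. Cox5a, Cox6c, Cox6a1, Atp5o and Atp5a1 were higher on M23 and M158 than on the rest. Without both arrays 8 members were lower at an unadjusted p under 0.05, with Uqcr10 among them and Atp5pb not, and Cox7a1 and Atp5g2 differed by -0.34 and -1.04. The atrial light chain Myl7 was highest on knockout M10 and wild-type M125, at 17557 and 16097. Without both arrays 5 members were lower at that p, Uqcr11, Cox7a1, Cycs, Uqcrb and Cox4i2. Of these, Uqcrb and Cox4i2 were not among the 8 of the main fit, and Uqcrq, Atp5g2, Atp5e, Atp5pb and Cyc1 no longer passed. The share of all genes lower without either pair of arrays is not given, so these counts show no gain or loss of the members. Of 9 tested heart muscle markers 1 was lower and 0 higher at that p. The lower one was Pln, at -0.70 with groups apart (limma, unadjusted p = 2.32e-05, adjusted p = 0.0769). Mybpc3, at the limit on 3 arrays, was wholly higher on the knockout arrays, at 0.37 (unadjusted p = 0.0512). The summed intensity of the heart muscle markers was 345380.0 to 355038 on the knockout and 344351 to 359741 on the wild-type arrays. Of the 10 listed, 6 reached the limit on 1 or more arrays, which fixes most of that sum, so that it does not measure heart muscle content. At that p 5.44% of all genes were lower and 6.77% higher. Of 5 tested skeletal muscle markers 1 was lower, Ckm at -0.66, and 1 higher, Acta1 at 2.73. Of 5 tested atrial markers 2 were higher, Nppa at 1.80 and Dkk3 at 0.33, with sums of 49011 to 73332 against 10412 to 75725. Nppa alone read 37741 to 45540 on the knockout arrays, at the limit on 2 of them. Myl4, Sln and Myl7 differed by -0.54, -0.087 and 0.34 and did not pass. Of 10 macrophage markers 4 were higher, with sums of 31561 to 40615 against 23794 to 37225, of 10 fibroblast markers 1, with 31852 to 108803 against 38757 to 53053, and of 10 endothelial markers 2, with 25606 to 27239 against 20134 to 26995. Both tested red blood cell markers were higher, with sums of 5483 to 10599 against 4113 to 4915, and none of 6 smooth muscle markers passed, with 44918 to 51785 against 38533 to 49354. No marker is at 0 on these arrays, whose lowest value was 86.5.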

How the data were processed

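Total RNA of the left ventricle was measured on 1 array per mouse, and the authors deposited probe set intensities on a linear scale. No source used here names the software, background correction or scaling. Deposited scanner sheets, which hold other information and no measurement, supplied hybridization days that coincided with 4 chip lots. The sheet of wild-type M23 says that 2 processings were combined. No pair of arrays shared more than 7.18% of values exactly, and identical values on different arrays are part of the deposited scale. Control probe sets and those naming several genes were left out, values were taken as log2(intensity + 16), and probe sets above the 40th percentile of at least 3 arrays, 13836 in all, were fitted with limma 3.58.1 (eBayes with trend, no covariate, two-sided) in R 4.3.3, with Benjamini-Hochberg adjustment over all of them and a threshold of 0.05. On simulated data the fit was tested for recovery of known changes. Shares of all genes refer to 8863 tested genes with 1 probe set each. Isoform pairs were compared by exact permutation over 35 splits of the arrays. Named with values on every array were the 5 members of each complex with the smallest p, the 6 isoforms and members whose groups do not overlap, and of each companion list at most 3. Members and lists were chosen with earlier results of these data known. Alternatives covered the offset, normalization, background, filter, array weights, day, probe set rule and left-out arrays.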

Additional observations from a re-analysis of the deposited data

How the results depend on the processing

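Of 27 alternatives, the count past an adjusted p of 0.05 stayed at 0 in all but 2, the array weights (5) and the fit without knockout M140 (1, Uqcrq). The count lower at an unadjusted p under 0.05 ran from 5 (without knockout M4) to 10 with single arrays left out, and was 18 with array weights, 3 with probe sets below 80% of the limit and 5 without M10 and M125. Except for the array weights, these counts have no share of all genes beside them and cannot be read against it. The median of complex III (-0.17) was -0.13 with array weights, -0.073 with the day as a fixed block or within the day, -0.081 with the limit ignored, -0.099 below 80% of the limit, -0.12 without cross-reading probe sets, -0.088 with the mean of a gene's probe sets, and -0.11 without M23 and M158 or without M10 and M125. That of complex IV (-0.031) was -0.071 with the Gapdh ratio as covariate, -0.0061 with the limit ignored, -0.075 below 80% of it, -0.12 over subunits below it, and -0.0075 without M23 and M158. That of ATP synthase (-0.048) was -0.029 with array weights, -0.030 with quantile normalization, -0.22 below 80% of the limit and -0.064 without M10 and M125. With single arrays left out these medians ran from -0.17 to -0.13, -0.063 to -0.020 and -0.055 to -0.028. The cause of these shifts was not tested. With the limit ignored, the median of complex IV equals the value of a probe set at the limit on all 7 arrays. The shift of Cox6a2 over Cox6a1 was -0.088 with the day as a block or within the day and -0.0029 without M23 and M158, and 0.14 to 0.36 with single arrays left out. That of Cox7a1 over Cox7a2 was -0.36 with the limit ignored and -0.33 with the mean of probe sets, and -0.41 to -0.22. That of Cox8b over Cox8a was 0.025 without cross-reading probe sets, 0.11 without M23 and M158, and -0.12 to 0.069. Pairs have no value under settings of the limma fit alone or below 80% of the limit. No paired analysis was possible because knockout and wild-type mice have no number in common. The upper limit and the 3 and 4 arrays set the precision.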
